A study of Mus musculus with 27 samples.

Results

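The mitochondrial ribosomal proteins were examined in mouse bone marrow-derived macrophages. Members were all genes of the count table whose symbol was Mrpl or Mrps followed by a number, with or without a trailing letter, and whose mean level was at least 1 CPM (reads of a gene scaled to the total of its library) over 27 libraries. The table held 29872 genes, 78 of them matched the name, and 77 were members, 48 named Mrpl and 29 named Mrps. The name and the mean level chose them, and no comparison between groups was used. The gene left out was Mrpl53, at 0.150 CPM. The members nearest to the threshold were Mrps33 (8.61 CPM), Mrpl23 (10.9 CPM) and Mrps36 (13.5 CPM), so the threshold fell in an empty range.

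The libraries were poly(A) RNA from macrophages grown for 5 days, in L-cell conditioned medium, from the marrow of male mice aged 8 to 10 weeks. The 15 knockout (KO) libraries came from C57BL/6 mice given as LysM-Cre+/+; GRIP1fl/fl, in which the Lyz2 (LysM) locus, active in macrophages and neutrophils, drives a Cre recombinase that acts on a floxed Ncoa2 gene. Ncoa2 encodes GRIP1, which works with the glucocorticoid receptor as a coregulator of transcription. The 12 wild-type (WT) libraries were given as GRIP1wt/wt, with LysM-Cre+/+ in the genotype field and as plain BL6 in the titles, so whether the WT cells carried Cre cannot be told from the labels. Cells of each genotype received interleukin 4 (IL4) at 10 ng/ml, the natural glucocorticoid corticosterone at 500 nM, the synthetic glucocorticoid dexamethasone at 100 nM, or vehicle, for 24 h. The KO IL4 group held 3 libraries (numbered 1, 2 and 4), the other KO groups 4 each and the WT groups 3 each. Nothing in the labels says that the libraries of a group are separate animals or cultures, and every p-value therefore measures only how these libraries spread, which may be technical spread. The study compared each treatment with vehicle within a genotype, KO with WT under each treatment, and the treatment effects between the genotypes.

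Mitochondria have their own ribosome, which translates the few messages of mitochondrial DNA, all of them for subunits of the respiratory chain and the ATP synthase. Its RNAs are made inside the organelle, but its proteins are encoded by nuclear genes, made in the cytosol and imported, and are assembled into a large and a small subunit. Some members have relatives in bacterial ribosomes and others are found only in mitochondria. IL4 drives the alternative activation of macrophages, a state known for its reliance on mitochondrial respiration.

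Library totals were 20162729 to 48023102 counts. Ncoa2 was at 16.1 to 26.0 CPM in KO libraries, against 55.7 to 93.4 CPM in WT libraries. The sources used here do not name the exons that are floxed. All 8 macrophage markers averaged at least 10 CPM, with a sum of 5390 to 6923 CPM per library. The T or NK cell markers summed to at most 1.22 CPM and the erythroid markers to at most 0.432 CPM. Stromal and neutrophil markers went with genotype. The sum of 5 stromal markers was 7.75 to 37.0 CPM in KO libraries, against 144 to 738.5 CPM in WT libraries, and the sum of 8 neutrophil markers was 5.98 to 17.0 CPM in KO libraries, against 48.4 to 361.3 CPM in WT libraries. The sum of 4 endothelial markers went with treatment. In KO it was 39.4 to 57.2 CPM with IL4, 16.4 to 19.4 CPM with corticosterone and 15 to 24.2 CPM with dexamethasone, against 26.2 to 35 CPM with vehicle. The WT sum was 38.7 to 45.3 CPM with IL4, 15.2 to 17.8 CPM with corticosterone and 15.4 to 16.8 CPM with dexamethasone, against 21.1 to 23.9 CPM with vehicle. Pecam1, which macrophages also express, led it at a mean of 14.7 CPM, with Kdr at 7.62, Cdh5 at 3.41 and Emcn at 0.309 CPM. The part of these markers in the members' changes with treatment was not tested. In bulk RNA, fewer cells of a type and less RNA per cell cannot be told apart. Some libraries stood apart. Replicate 4 of KO IL4 differed from replicates 1 and 2 by a chi-square per gene of 45.5 and 50.3, against 10.3 between those 2. Arg1, an IL4 target, was also at 117.2 and 78.4 CPM in replicates 2 and 3 of KO vehicle, 68.0 CPM in replicate 2 of KO dexamethasone and 67.1 CPM in replicate 1 of WT dexamethasone, against at most 12.2 CPM in the other libraries without IL4. Calls that were lost without replicate 4 of KO IL4, or without the 4 libraries high in Arg1, are given below with their values, and leaving out the 4 together was a step added after the values were seen.

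Members were expressed throughout a 23.0-fold range of level per length. Per kilobase of the principal transcript, the median member stood at 25.8 RPKM (CPM divided by the length in kilobases) over the 27 libraries, with quartiles of 13.6 and 45.5 RPKM. The highest were Mrps21 (100.8 RPKM), Mrpl52 (93.2 RPKM), Mrpl42 (90.0 RPKM), Mrpl20 (84.7 RPKM) and Mrpl28 (74.4 RPKM). The lowest were Mrps35 (4.39 RPKM), Mrpl47 (5.13 RPKM), Mrpl1 (6.29 RPKM), Mrps5 (6.52 RPKM) and Mrpl35 (6.75 RPKM). The level per length thus differed between members far more than any member differed between groups. Mrpl genes had a median of 29.4 RPKM and Mrps genes 20.5 RPKM, a difference given here without a test. The length used matters for these ranks, since with the union of all annotated exons Mrpl42 stood at 16.3 RPKM and Mrpl33 at 4.56 RPKM, against 69.8 RPKM with its principal transcript.

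**Figure D1:**
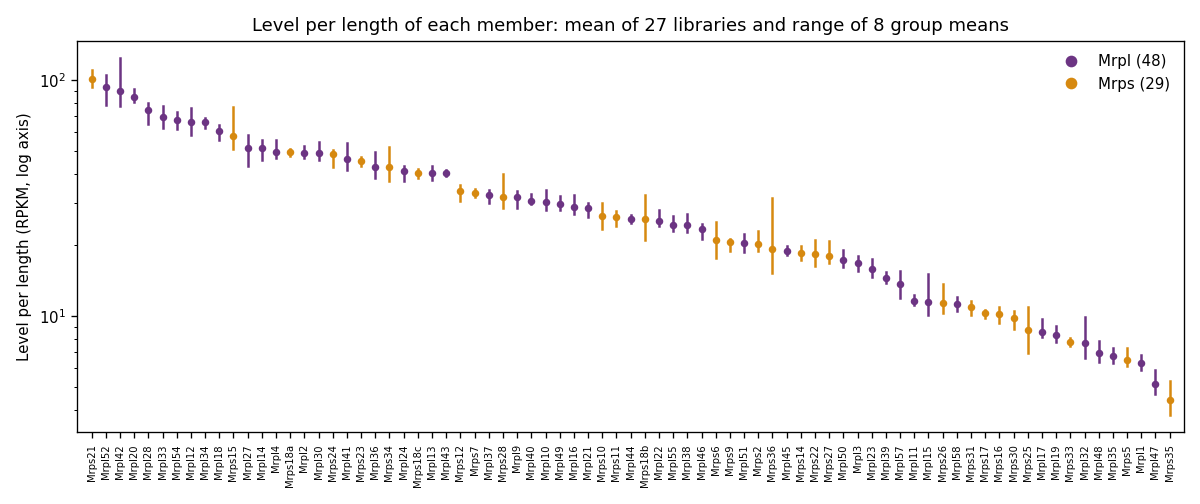
Level per length of the 77 members, ranked from left to right. Points are means over 27 libraries in RPKM on a log axis, vertical lines span the 8 group means, and colours separate Mrpl from Mrps genes. Most lines are short beside the distance between Mrps21 at 100.8 RPKM and Mrps35 at 4.39 RPKM, and Mrps36 has the longest relative span.

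Members varied little between groups beside genes in general. The ratio of the highest to the lowest of the 8 group means had a median of 1.18 over the members, against 1.45 over the 14589 genes tested, and it was at least 1.5 in 5 members (6.49%), against 46.5% of all genes. These 5 were Mrps36 (2.08), Mrpl42 (1.60), Mrps25 (1.57), Mrps18b (1.54) and Mrps15 (1.51). The highest group was KO IL4 in Mrps36, Mrpl42, Mrps18b and Mrps15, and WT IL4 in Mrps25. Only Mrps36 reached a ratio of 2 (1.3% of members, against 27.4% of all genes). The spread between libraries of a group was also smaller, with a median SD of 0.116 on the log2 scale over members, against 0.157 over all genes. Members were more abundant than the median gene (38.9 CPM, against 22.3 CPM), and the part of abundance in these differences was not tested. No member differed by a log2 fold change of 1 in any of the 10 comparisons of 2 groups, and the largest was 0.71.

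The summed level of all members was 3232 ± 143 CPM in KO IL4 (SD, n = 3), 3040 ± 175 CPM in KO corticosterone (n = 4), 3031 ± 97.0 CPM in KO dexamethasone (n = 4) and 3175 ± 288 CPM in KO vehicle (n = 4). In WT it was 3268 ± 86.7 CPM with IL4, 2989 ± 71.2 CPM with corticosterone, 2937 ± 163 CPM with dexamethasone and 3050 ± 211 CPM with vehicle (SD, n = 3 each). Every treated group overlapped its vehicle group in this sum. Between libraries of the same number, the WT sum was higher with IL4 in 3 of 3 numbers (by 66.6 to 309.6 CPM) and lower with dexamethasone in 3 of 3 (treated minus vehicle, -157.7 to -49.8 CPM). It was higher in 2 of 3 with WT corticosterone, 2 of 3 with KO IL4, 1 of 4 with KO corticosterone and 1 of 4 with KO dexamethasone. In KO, the libraries numbered 2 lay at 3130 to 3552 CPM and those numbered 4 at 2827 to 3091 CPM. No test between groups was made on the sum.

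**Figure D2:**
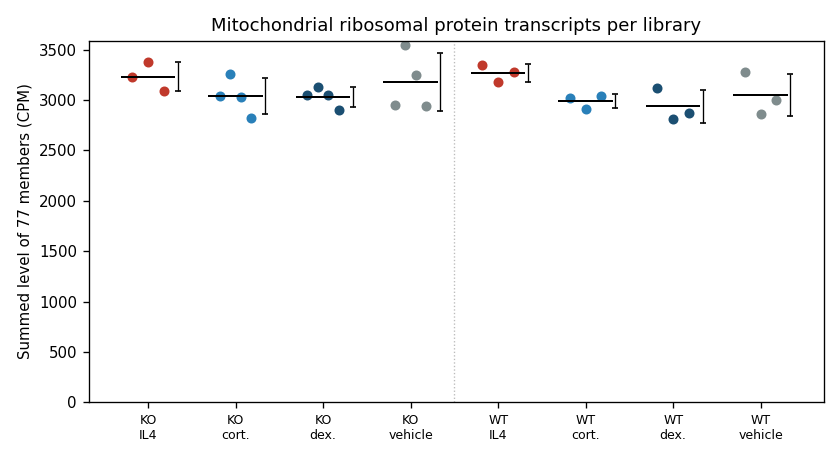
Summed level of the 77 members in each of 27 libraries, in CPM from 0. Points are libraries, black bars group means and error bars the SD. All libraries lie between 2816 and 3552 CPM, and the treated groups overlap their vehicle groups.

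Promoter windows from RefSeq (GRCm38.p6), 250 bases before to 50 bases after each annotated start, were found for 68 of the 77 members (74 windows). They were searched on both strands for 6 motifs. The letters CCGGAAG, bound by ETS factors such as GABPA, were in the windows of 36.8% of members, against 19.6% of the 10614 tested genes that have a window. The YY1 letters AAGATGGC were in 17.6%, against 5.2% of those genes, and the NRF1 letters (GCGCA, any base, then GCGC) in 19.1%, against 11.2%. NRF1 and GABPA are known as regulators of nuclear genes for mitochondrial proteins. The E-box CACGTG was in 7.35% of members, against 11.7% of tested genes. The glucocorticoid receptor letters (G, any base, ACA, 3 of any base, TGT, any base, then C) were in 0% of members, against 0.358% of tested genes. The STAT6 letters (TTC, 4 of any base, then GAA) were in 2.94% of members, against 6.77% of tested genes. A match describes these windows and is not a binding site, and these shares were not tested. The window overlapped a window of another gene on the opposite strand for 24 of the 68 members (35.3%, against 19.0% of tested genes). Mrpl46 and Mrps11 are such a pair within the family, with starts 42 bases apart on opposite strands of chromosome 7.

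The windows below belong to the members that the results turn on or compare. Mrps36 rose with IL4 in both genotypes, Mrpl36 rose with IL4 in WT cells, and Mrps6 fell with glucocorticoids. Mrps18a, Mrps18b and Mrps18c are paralogs, of which Mrps18b was called with IL4, in KO cells. Capitals mark matches on either strand to the ETS, YY1 or E-box letters, and these matches do not overlap each other. Each runs 5′ to 3′ on the strand of its gene.
Mrpl36, chr13:73330759-73331058 (+): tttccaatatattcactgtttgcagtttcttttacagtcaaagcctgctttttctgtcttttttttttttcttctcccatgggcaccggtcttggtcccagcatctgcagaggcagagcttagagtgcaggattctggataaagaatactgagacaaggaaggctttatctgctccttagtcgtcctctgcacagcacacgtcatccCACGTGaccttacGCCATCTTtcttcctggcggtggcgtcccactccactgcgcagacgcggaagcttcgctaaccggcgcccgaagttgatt
Mrps36, chr13:100744610-100744909 (-): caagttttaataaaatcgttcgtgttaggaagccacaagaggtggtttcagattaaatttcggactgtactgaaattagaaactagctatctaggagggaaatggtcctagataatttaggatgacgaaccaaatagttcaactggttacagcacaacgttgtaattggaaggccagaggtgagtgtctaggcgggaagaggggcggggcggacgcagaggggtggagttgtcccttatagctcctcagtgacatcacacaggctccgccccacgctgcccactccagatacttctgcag
Mrps6, chr16:92058086-92058385 (+): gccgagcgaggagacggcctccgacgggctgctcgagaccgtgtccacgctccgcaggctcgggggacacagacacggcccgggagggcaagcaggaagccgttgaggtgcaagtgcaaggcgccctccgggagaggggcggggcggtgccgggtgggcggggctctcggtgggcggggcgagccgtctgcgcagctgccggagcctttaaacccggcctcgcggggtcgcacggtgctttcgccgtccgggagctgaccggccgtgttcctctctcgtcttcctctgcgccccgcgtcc
Mrps18a, chr17:46110754-46111053 (+): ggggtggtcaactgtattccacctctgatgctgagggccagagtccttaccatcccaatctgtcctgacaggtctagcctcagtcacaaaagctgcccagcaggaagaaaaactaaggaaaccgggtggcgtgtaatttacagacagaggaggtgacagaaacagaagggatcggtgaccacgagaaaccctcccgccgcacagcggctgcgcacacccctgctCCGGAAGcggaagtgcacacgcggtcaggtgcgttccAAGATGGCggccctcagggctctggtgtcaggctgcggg
Mrps18b, chr17:35916391-35916690 (-): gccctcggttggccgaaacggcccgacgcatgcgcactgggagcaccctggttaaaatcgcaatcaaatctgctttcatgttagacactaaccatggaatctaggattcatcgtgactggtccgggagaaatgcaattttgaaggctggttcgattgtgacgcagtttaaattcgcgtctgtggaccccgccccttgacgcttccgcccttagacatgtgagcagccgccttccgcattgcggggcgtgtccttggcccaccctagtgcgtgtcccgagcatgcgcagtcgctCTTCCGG
Mrps18c, chr5:100798509-100798808 (+): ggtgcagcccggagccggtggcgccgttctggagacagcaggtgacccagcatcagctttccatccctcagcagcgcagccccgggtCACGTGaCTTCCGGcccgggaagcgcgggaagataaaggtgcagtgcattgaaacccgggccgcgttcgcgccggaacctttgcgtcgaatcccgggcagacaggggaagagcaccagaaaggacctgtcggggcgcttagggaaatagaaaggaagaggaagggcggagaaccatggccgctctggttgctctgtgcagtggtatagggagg
The window of Mrpl36 held an E-box 43 bases and a YY1 match 30 bases before the start, on these letters. Those of Mrps36 and Mrps6 held none of the 6 motifs. All 3 Mrps18 paralogs held an ETS match, which stood 26 bases before the start in Mrps18a, 44 bases into the transcript in Mrps18b and 156 bases before the start in Mrps18c. Mrps6 shares its window with another gene: the annotated start of Slc5a3, a myo-inositol transporter, lies 14 bases away on the same strand.

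IL4 raised a minority of members in both genotypes. By edgeR's quasi-likelihood test with Benjamini-Hochberg adjustment over all 14589 genes, 9 of 77 members were called at an adjusted p under 0.05 in KO cells (11.7%, against 26.5% of all genes), 7 higher and 2 lower. In WT cells 10 of 77 were called (13%, against 30.1% of all genes), all of them higher. Over all genes, 14.5% were called higher in KO cells and 14.8% in WT cells. The median log2 fold change of members was 0.02 in KO cells and 0.06 in WT cells, against 0.01 and -0.01 over all genes. Mrps36, Mrpl15 and Mrps15 were higher in both genotypes, which is 33.3% of the KO calls and 30% of the WT calls. The 2 IL4 comparisons share no library, and the sign was the same in 50 of 77 members. The matching shares of calls and signs over all genes were not counted, so whether this agreement is high or low cannot be told. With the library number as a block, 16 members were called in KO cells (20.8%, against 35.8% of all genes) and 22 in WT cells (28.6%, against 39.9% of all genes). Of these, 12 were higher in KO cells, where 19.1% of all genes were higher, and 20 in WT cells, where 19.6% of all genes were higher. Without the 4 libraries high in Arg1, 17 members were called in each genotype (22.1%, against 25.9% of all genes in KO cells and 31.1% in WT cells). All of them were higher, beside 12.8% of all genes called higher in KO cells and 15.9% in WT cells. Whether the members' share of higher calls lay below or above that of all genes thus depended on the setting, and the difference was not tested. When each treatment was fitted with its own vehicle group alone, Mrps36 was the one member called in KO cells (1.3%, against 13.2% of all genes). In WT cells that gave 14 calls (18.2%, against 29.6% of all genes), 13 of them higher.

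**Figure D3:**
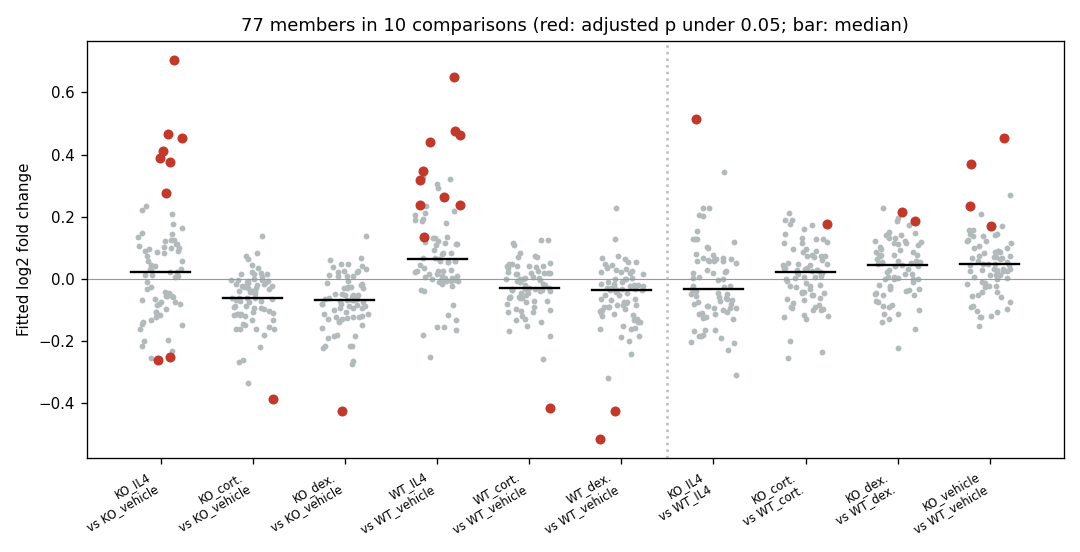
Fitted log2 fold changes of the 77 members (points) in the 6 treatment comparisons, left of the dotted line, and the 4 comparisons of KO with WT, right of it. Red points have an adjusted p under 0.05, and black bars are medians. The bars stay within 0.07 of 0, while single members reach 0.71 with IL4.

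Mrps36 had the largest change with IL4 in KO cells. It bears a ribosomal name but is known as a component of the 2-oxoglutarate dehydrogenase complex of the citric acid cycle. It was at 17.9, 17.6 and 30.6 CPM in the KO IL4 libraries, against 12.8, 15.2, 13.1 and 13 CPM in KO vehicle. In WT it was at 14.9, 15.8 and 15.6 CPM with IL4, against 11.6, 10.5 and 11.4 CPM with vehicle. The groups did not overlap in either genotype, and the highest value belonged to the KO library that stood apart. The log2 fold change was 0.71 ± 0.13 (SE, adjusted p = 0.000366) in KO cells and 0.46 ± 0.15 (adjusted p = 0.0171) in WT cells. Without replicate 4 of KO IL4 the KO value was 0.40 (adjusted p = 0.00424). Without replicate 2 of WT vehicle the WT call was lost (adjusted p = 0.0691).

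Mrpl15, a large-subunit protein with a bacterial relative, was the most even riser. It was at 60.2, 64.0 and 64.8 CPM in KO IL4, against 41.6, 57.8, 52.0 and 41.1 CPM in KO vehicle. In WT it was at 59.6, 59.5 and 61.0 CPM with IL4, against 49.4, 38.9 and 41.2 CPM with vehicle. The IL4 libraries of both genotypes lay close together and above all vehicle libraries. The log2 fold change was 0.39 ± 0.10 in KO cells (adjusted p = 0.00782) and 0.48 ± 0.11 in WT cells (adjusted p = 0.00206). Its 2 highest vehicle values in KO cells were in the 2 libraries with high Arg1, and without the 4 libraries high in Arg1 the KO value was 0.59 (adjusted p = 6.58e-05).

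Mrps15, a small-subunit protein with a bacterial relative, was at 67.0, 67.6 and 79.8 CPM in KO IL4, against 51.7, 66.5, 49.1 and 53.4 CPM in KO vehicle. In WT it was at 59.7, 60.7 and 62.6 CPM with IL4, against 47.8, 49.4 and 49.7 CPM with vehicle. The groups did not overlap, but in KO cells the vehicle library numbered 2 came within reach of the IL4 libraries. The log2 fold change was 0.37 ± 0.09 in KO cells (adjusted p = 0.00333) and 0.32 ± 0.10 in WT cells (adjusted p = 0.0146).

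**Figure D4:**
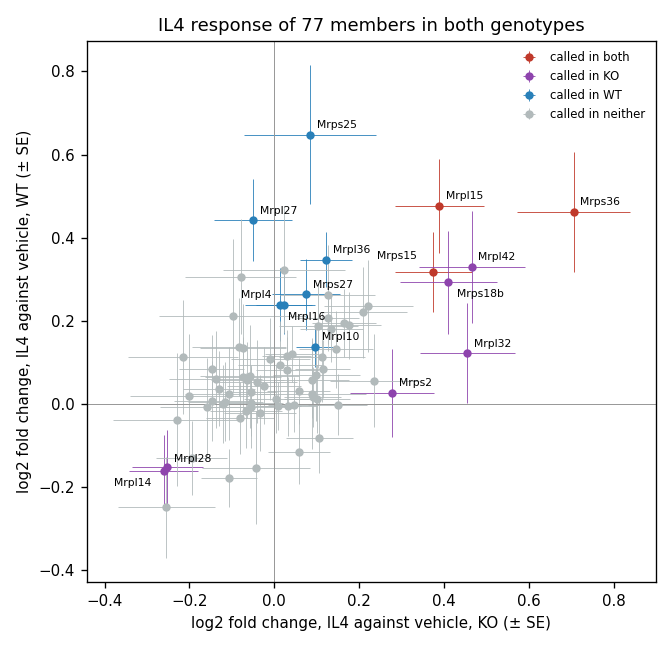
Log2 fold change with IL4 of each of the 77 members in KO cells (horizontal axis) and WT cells (vertical axis), with SE bars. Colours separate members called in both genotypes, in KO, in WT and in neither. Mrps36, Mrpl15 and Mrps15 lie at the upper right, and Mrps25 and Mrpl27 rise in WT cells alone on this test.

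In WT cells 6 of 48 Mrpl genes and 4 of 29 Mrps genes were called with IL4. Mrpl27, which in bacteria lies near the peptidyl transferase centre, was at 44.7, 44.5 and 43.4 CPM with IL4, against 36.2, 28.9 and 32.5 CPM with vehicle, a log2 fold change of 0.44 ± 0.10 (adjusted p = 0.00116). Mrpl36 was at 48.2, 44.3 and 44.5 CPM with IL4, against 37.6, 34.7 and 35.4 CPM with vehicle, a change of 0.35 ± 0.07 (adjusted p = 0.000248). In both, every IL4 library lay above every vehicle library. Mrpl4, Mrpl16 and Mrpl10, the last a part of the stalk that recruits translation factors, rose by 0.24, 0.24 and 0.14 (adjusted p = 0.0119, 0.0423 and 0.0379). Of the small subunit, Mrps27, a protein with pentatricopeptide repeats found only in mitochondria, rose by 0.26 (adjusted p = 0.0212). Over 13 alternative fits, the call was lost in 1 for Mrpl4, 5 for Mrpl16, 6 for Mrpl10 and 5 for Mrps27.

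Mrps25, a small-subunit protein with no bacterial relative, had the largest WT change. It was at 64.4, 65.3 and 68.1 CPM with IL4, against 45.4, 42.1 and 38.8 CPM with vehicle, a log2 fold change of 0.65 ± 0.17 (adjusted p = 0.0043). In KO cells it was at 65.4, 69.8 and 48.1 CPM with IL4, against 46.7, 70.7, 64.6 and 48.6 CPM with vehicle, a change of 0.09 that did not pass. Its 4 highest libraries without IL4 were those high in Arg1, with 70.7 and 64.6 CPM in KO vehicle, 67.3 CPM in KO dexamethasone and 62.0 CPM in WT dexamethasone. Without them the KO change was 0.34 (adjusted p = 0.0518). Of the exon bases of Mrps25, 69.8% lie opposite Nr2c2, whose own log2 fold change in WT cells was -0.30 (adjusted p = 0.108).

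In KO cells the other calls were Mrpl42, Mrpl32, Mrps18b and Mrps2, which were higher, and Mrpl28 and Mrpl14, which were lower. Mrpl42, a large-subunit protein found only in mitochondria, was at 63.6, 72.3 and 110.1 CPM with IL4, against 54.5, 69.2, 59.9 and 54.0 CPM with vehicle. Mrpl32, whose processing by the mitochondrial m-AAA protease is a known step of ribosome assembly, was at 24.3, 24.8 and 40.3 CPM, against 21.3, 23.6, 22.4 and 19.6 CPM. Mrps2 was at 39.0, 41.0 and 63.1 CPM, against 39.3, 38.6, 41.7 and 37.6 CPM. In all 3 the high value was that of the library numbered 4. The log2 fold changes were 0.46 for Mrpl42 (adjusted p = 0.00787), 0.45 for Mrpl32 (adjusted p = 0.00395) and 0.28 for Mrps2 (adjusted p = 0.0393). Without that library they were 0.19 (adjusted p = 0.18), 0.18 (adjusted p = 0.0645) and 0.02 (adjusted p = 0.819). Mrpl28 fell by 0.25 and Mrpl14 by 0.26 on the log2 scale (adjusted p = 0.0289 and 0.0187), and without it the values were -0.14 and -0.17 (adjusted p = 0.247 and 0.155). Without the 4 libraries high in Arg1, Mrps2 was at 0.29 (adjusted p = 0.0881), Mrpl28 at -0.19 (adjusted p = 0.199) and Mrpl14 at -0.19 (adjusted p = 0.173). Without replicate 4, the members called in KO cells were Mrps36, Mrpl15 and Mrps15.

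Of the Mrps18 paralogs, Mrps18b was called with IL4, in KO cells. In mice and humans 3 genes encode relatives of the bacterial protein S18. The product of Mrps18a is built into the large subunit, and those of Mrps18b and Mrps18c into the small subunit. Mrps18b was at 31.3, 33.4 and 40.5 CPM in KO IL4, against 23.6, 29.4, 28.5 and 23.8 CPM in KO vehicle, and at 35.9, 33.8 and 33.5 CPM in WT IL4, against 30.8, 26.5 and 27 CPM in WT vehicle. No IL4 library overlapped the vehicle libraries of its genotype. Its log2 fold change was 0.41 ± 0.11 in KO cells (adjusted p = 0.0101) and 0.29 ± 0.12 in WT cells, which did not pass (adjusted p = 0.0775). It passed in WT cells with the library number as a block (adjusted p = 0.0087) and without the 4 libraries high in Arg1 (adjusted p = 0.0241), and was lost in KO cells without replicate 4 (0.29, adjusted p = 0.0988). Mrps18a changed by 0.03 in KO cells and -0.01 in WT cells, and Mrps18c by -0.12 and 0.00, none of which passed. The difference between paralogs was not tested. Of the exon bases, 30.5% in Mrps18b and 23.2% in Mrps18c are shared with a predicted gene.

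In the model of all groups, glucocorticoids lowered a single member in both genotypes, Mrps6, a small-subunit protein with a bacterial relative. It was at 15.1, 17.8, 15.2 and 14.3 CPM in KO corticosterone and 16.4, 15.2, 15.2 and 14.1 CPM in KO dexamethasone, against 19.6, 23.4, 21.8 and 16.7 CPM in KO vehicle. In WT it was at 17.2, 14.7 and 15.6 CPM with corticosterone and 17.3, 13.2 and 13.9 CPM with dexamethasone, against 24.5, 19.3 and 19.6 CPM with vehicle. The groups overlapped in KO corticosterone and in none of the other 3. The log2 fold changes were -0.39 ± 0.10 (adjusted p = 0.0131) for KO corticosterone, -0.42 ± 0.10 (adjusted p = 0.00455) for KO dexamethasone, -0.41 ± 0.12 (adjusted p = 0.0362) for WT corticosterone and -0.52 ± 0.12 (adjusted p = 0.00409) for WT dexamethasone. The 2 comparisons of a genotype share their vehicle libraries. Fitted with the vehicle group alone, both KO values passed and the WT values did not (adjusted p = 0.0793 with corticosterone and 0.056 with dexamethasone). With IL4 the change was -0.16 in KO cells and -0.01 in WT cells, neither of which passed.

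Apart from Mrps6, Mrpl52 was lower in WT dexamethasone and no other member was called with either hormone in the model of all groups. The counts were 1 of 77 in KO corticosterone (1.3%, against 12.1% of all genes), 1 in KO dexamethasone (1.3%, against 18.4%), 1 in WT corticosterone (1.3%, against 5.94%) and 2 in WT dexamethasone (2.6%, against 13.7%). All were lower, and of all genes 6.07%, 9.29%, 2.46% and 6.03% were called lower in these 4 comparisons, in that order. With the library number as a block, 2 members were called in KO corticosterone (20.4% of all genes), 2 in WT corticosterone (12.3%) and 6 in WT dexamethasone (22.1%), all lower and Mrps6 among them in each. The others were Mrps28 in KO corticosterone, Mrpl52 in WT corticosterone, and Mrpl52, Mrpl57, Mrpl12, Mrpl54 and Mrpl37 in WT dexamethasone. KO dexamethasone, which failed the pairing rule given below, had 8 (27.8% of all genes), all lower. Of these, Mrps6, Mrpl52, Mrpl57, Mrpl12 and Mrpl54 were also called in WT dexamethasone with the block. Mrps28, Mrps18b and Mrps10 were not. Mrpl52, a large-subunit protein found only in mitochondria, was at 35.9, 30.5 and 31.4 CPM in WT dexamethasone, against 53.5, 36.4 and 41.4 CPM in WT vehicle. The groups do not overlap, and the value of 53.5 CPM stands well above the rest. Its log2 fold change was -0.42 ± 0.14 (adjusted p = 0.0397), and -0.26 without replicate 1 of WT vehicle (adjusted p = 0.276). With the block it was -0.41 in WT dexamethasone (adjusted p = 0.000504) and -0.25 in WT corticosterone (adjusted p = 0.043).

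Some calls of Mrps6 depended on the libraries used, and its locus holds another gene. Without the 4 libraries high in Arg1, 2 of them in KO vehicle, its change was -0.23 in KO corticosterone (adjusted p = 0.274), -0.26 in KO dexamethasone (adjusted p = 0.161), -0.43 in WT corticosterone (adjusted p = 0.0108) and -0.65 in WT dexamethasone (adjusted p = 0.000573). Without replicate 1 of WT vehicle, which had 24.5 CPM, the WT corticosterone value was -0.30 (adjusted p = 0.233). That call was also lost without replicate 2 (adjusted p = 0.176) or 3 (adjusted p = 0.119) of WT corticosterone, and the KO corticosterone call without replicate 2 (adjusted p = 0.0503) or 3 (adjusted p = 0.0527) of KO vehicle. No single library ended either dexamethasone call. Slc5a3, which starts 14 bases away, was at 9.3, 7.6, 7.9 and 8.9 CPM in KO corticosterone and 12.1, 7.9, 8.9 and 9.2 CPM in KO dexamethasone, against 11.3, 9.5, 12 and 10.1 CPM in KO vehicle. In WT it was at 12.2, 9.3 and 8.9 CPM with corticosterone and 10.0, 9.6 and 9.2 CPM with dexamethasone, against 14.1, 14.0 and 11.8 CPM with vehicle. Its changes were -0.35 (adjusted p = 0.0568), -0.17 (adjusted p = 0.368), -0.40 (adjusted p = 0.0978) and -0.47 (adjusted p = 0.0222) in the same order of groups, so it passed in WT dexamethasone alone. Mrps6 shares 19.9% of its exon bases with Slc5a3 and a predicted gene on the same strand, and their reads there cannot be told apart.

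**Figure D5:**
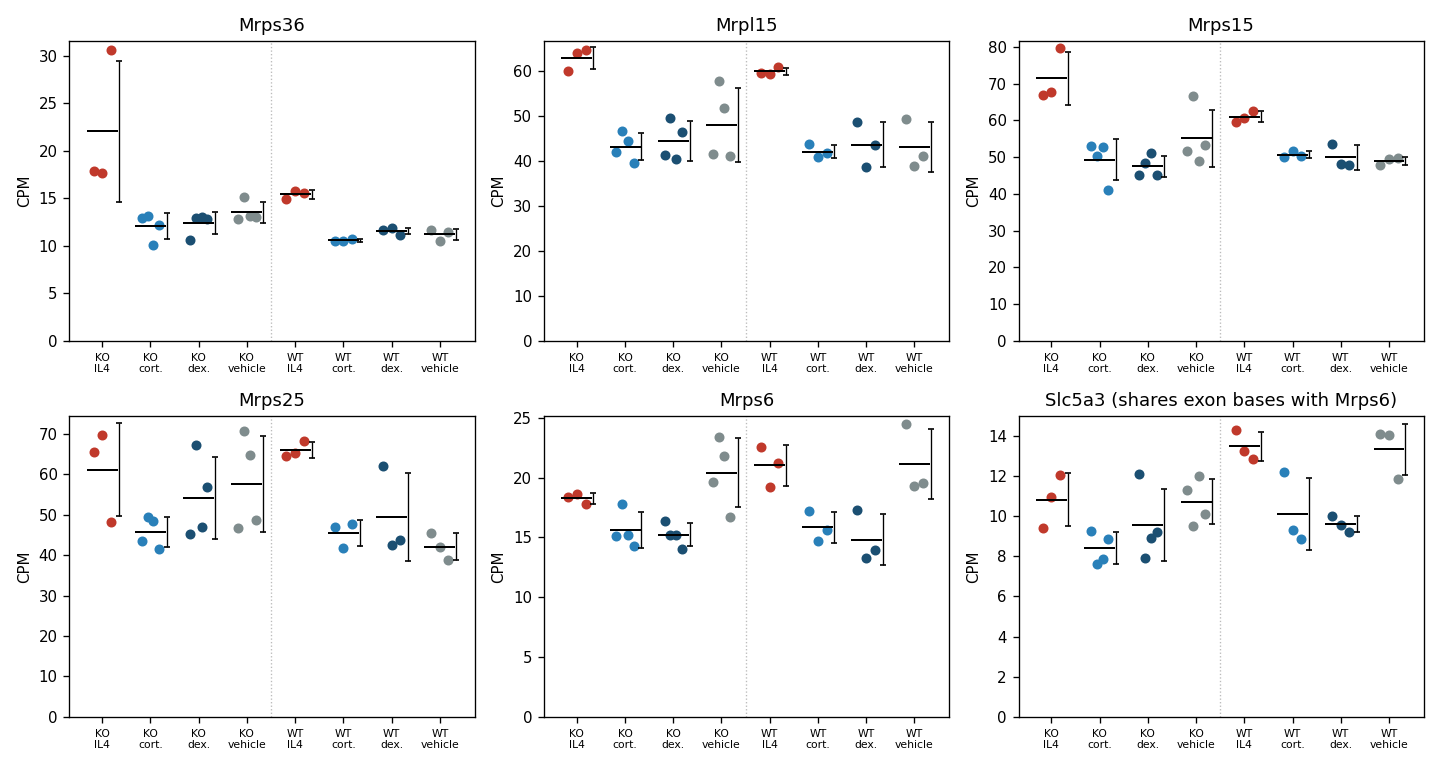
CPM of Mrps36, Mrpl15, Mrps15, Mrps25, Mrps6 and Slc5a3 in each library, KO groups left of the dotted line and WT groups right of it. Points are libraries, bars group means and error bars the SD, with axes from 0. Mrps36, Mrpl15 and Mrps15 are highest with IL4 in both genotypes, Mrps25 is also high in the 4 libraries high in Arg1, and Mrps6 is lowest with both glucocorticoids.

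KO and WT macrophages differed in few members. Under vehicle 4 of 77 were called, all higher in KO cells (5.19%, against 18.8% of all genes). With IL4 1 was called (1.3%, against 12.4%), with corticosterone 1 (1.3%, against 14.4%) and with dexamethasone 2 (2.6%, against 17.2%), again all higher in KO cells. Of all genes, 8.47% were called higher in KO cells under vehicle, 5.76% under IL4, 5.46% under corticosterone and 6.7% under dexamethasone. The median log2 fold changes of members, KO over WT, were -0.03 with IL4, 0.02 with corticosterone, 0.05 with dexamethasone and 0.05 with vehicle. Without the 4 libraries high in Arg1 the vehicle median turned to -0.07. When only the 2 groups compared were fitted, 2 members were called with corticosterone (beside 17.5% of all genes). These were Mrpl24, higher in KO cells (0.17, adjusted p = 0.0321), and Mrps22, lower in KO cells (-0.26, adjusted p = 0.0247). No member was called with IL4 (beside 4.6% of all genes), dexamethasone (14.3%) or vehicle (12%), where the adjusted p of the calls named below was 0.058 to 0.303. The stromal and neutrophil markers given above differ in the same comparisons, without overlap between the genotypes, and their part in these calls was not tested.

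Mrpl27 was the clearest of the 4 under vehicle, at 36.5, 47.0, 44.2 and 40.1 CPM in KO cells, against 36.2, 28.9 and 32.5 CPM in WT cells. The log2 fold change was 0.37 ± 0.09 (adjusted p = 0.00579). Mrps25 was higher by 0.45 (adjusted p = 0.0454), Mrps35, a small-subunit protein found only in mitochondria, by 0.24 (adjusted p = 0.0317) and Mrpl10 by 0.17 (adjusted p = 0.0105). The lowest KO library of Mrpl27 was close to the highest WT library, although the groups did not overlap. Mrpl27, Mrps25 and Mrpl10 were also called in WT IL4, which is compared with the same WT vehicle libraries. The interaction with IL4 uses these libraries too, so the results of such members are not independent. Without the 4 libraries high in Arg1 none of the 77 members was called by edgeR's quasi-likelihood test (11.4% of all genes), and Mrpl27 stood at 0.23 (adjusted p = 0.187), Mrps25 at 0.18 (adjusted p = 0.436), Mrps35 at 0.12 (adjusted p = 0.427) and Mrpl10 at 0.15 (adjusted p = 0.102).

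With IL4, the called member was Mrps36, at 17.9, 17.6 and 30.6 CPM in KO cells, against 14.9, 15.8 and 15.6 CPM in WT cells. Its log2 fold change of 0.51 ± 0.14 (adjusted p = 0.0199) was 0.21 without replicate 4 of KO IL4 (adjusted p = 0.246). The call was also lost when any WT IL4 library was left out (adjusted p = 0.0595 to 0.115). Mrpl24, a large-subunit protein with a bacterial relative, was higher with both hormones. It was at 58.1, 58.2, 56.2 and 55.8 CPM in KO corticosterone, against 50.9, 49.9 and 50.5 CPM in WT corticosterone, and at 62.6, 53.4, 57.7 and 58.1 CPM in KO dexamethasone, against 51.1, 49.1 and 49.7 CPM in WT dexamethasone. The genotypes did not overlap in either treatment, though the changes were small, 0.18 ± 0.06 (adjusted p = 0.0408) and 0.21 ± 0.06 (adjusted p = 0.0126). The corticosterone call was lost when any of its 7 libraries was left out. The dexamethasone call of Mrpl24 was lost in 3 of 14 alternative fits (adjusted p = 0.0509 to 0.058). Mrpl36 was higher by 0.19 with dexamethasone (adjusted p = 0.043), and stood at 0.20 without the 4 libraries high in Arg1 (adjusted p = 0.0754). This call was lost in 9 of 14 alternative fits, among them leaving out any of its libraries but replicate 3 of KO dexamethasone. Of the exon bases of Mrpl24, 26.3% lie opposite Rrnad1.

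No treatment effect on a member was shown to differ between the genotypes. By edgeR's quasi-likelihood test 0 of 77 members were called for the interaction with IL4 (0.0274% of all genes), with corticosterone (0.0206%) or with dexamethasone (0.185%), and DESeq2 also called 0 in each. At an unadjusted p under 0.05 there were 4 of 77 for IL4 (9.07% of all genes passed), 0 for corticosterone (6.35%) and 0 for dexamethasone (6.03%). In all 4 the log2 fold change with IL4, not the level, was lower in KO cells than in WT cells. The 4 were Mrpl27, Mrpl36, Mrps25 and Mrpl4. Mrpl27 had the smallest p, with a difference of -0.49 ± 0.13 between its log2 fold changes of -0.05 in KO cells and 0.44 in WT cells (adjusted p = 0.222). With the library number as a block it was called (-0.49, adjusted p = 0.0385, beside 1.02% of all genes), and without the 4 libraries high in Arg1 its value was -0.39 (adjusted p = 0.848). The interaction of Mrps6 was 0.03 with corticosterone and 0.09 with dexamethasone, with SEs of 0.16.

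Other members with second roles or unusual positions were not called with IL4 in the model of all groups. Mrpl12, a stalk protein that also binds the mitochondrial RNA polymerase, was the most abundant member in CPM (87.3) and changed with IL4 by 0.10 in KO cells and 0.19 in WT cells, neither of which passed. With the library number as a block it was higher in WT IL4 (0.19, adjusted p = 0.0249) and lower in WT dexamethasone (-0.20, adjusted p = 0.0322). That block also had it lower in KO dexamethasone (-0.18, adjusted p = 0.0208), which failed the pairing rule. Without the 4 libraries high in Arg1 it was higher with IL4 in KO cells (0.24, adjusted p = 0.0314) and WT cells (0.20, adjusted p = 0.0415). It was then lower in WT dexamethasone (-0.34, adjusted p = 0.006), and no member was called in KO dexamethasone. Mrpl41, linked to apoptosis, changed by 0.22 and 0.24 (adjusted p = 0.121 in both). In KO cells it passed with the block (0.24, adjusted p = 0.0469) and without those 4 libraries (0.34, adjusted p = 0.0433). Mrpl58, a peptidyl-tRNA hydrolase that frees stalled ribosomes, changed by 0.09 and 0.02. Mrps30, which despite its name is built into the large subunit, changed by 0.09 and 0.02 as well. In the model of all groups, 57 of the 77 members were called in none of the 13 comparisons, and 20 in at least 1. Of the 18 members called under a treatment, 16 were called with IL4 alone. The same counts were not made over all genes, so they show no trait of the members. IL4 also called more of all genes (26.5% in KO and 30.1% in WT) than the hormones did (5.94% to 18.4%).

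Other genes of mitochondrial translation were counted in the same 2 IL4 comparisons. Of 15 translation factors tested, 3 were higher with IL4 in KO cells and 5 in WT cells, and none was lower (20% and 33.3% called, beside the 26.5% and 30.1% of all genes given above). Lrpprc, which stabilises mitochondrial messages, was higher by 0.23 in KO cells (adjusted p = 0.000703) and 0.24 in WT cells (adjusted p = 0.000593). The elongation factor gene Gfm1 was higher by 0.31 and 0.23 (adjusted p = 0.00359 and 0.0336). Of 17 mitochondrial aminoacyl-tRNA synthetases, 3 were higher and 1 lower in KO cells, and 5 higher and 0 lower in WT cells (23.5% and 29.4% called). Wars2, which charges the tRNA for tryptophan, had the smallest p in both, with 0.72 in KO cells (adjusted p = 4.79e-07) and 0.75 in WT cells (adjusted p = 3.23e-07). Of 27 genes for assembly and rRNA modification, 1 was higher in KO cells, and 3 were higher and 1 lower in WT cells (3.7% and 14.8% called). Mpv17l2, a factor known to act in mitoribosome biogenesis, was the riser in KO cells, at 0.29 (adjusted p = 0.0105), and rose by 0.46 in WT cells (adjusted p = 0.000248). The 5 mitoribosome subunits with other names (Dap3, Ptcd3, Chchd1, Aurkaip1 and Gadd45gip1) had no call with IL4 in either genotype by edgeR's quasi-likelihood test, with 1 in KO cells and 0 in WT cells at an unadjusted p under 0.05.

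Nuclear oxidative phosphorylation genes were called with IL4 at a share of 11.4% in KO cells, against 26.5% of all genes. In WT cells the share was 22.8%, against 30.1% of all genes. Of 79 nuclear oxidative phosphorylation subunits, 9 were higher and 0 lower with IL4 in KO cells (median 0.02), and 17 were higher and 1 lower in WT cells (median 0.17). Called or not, their log2 fold changes ranged from -0.893 to 0.895 in KO cells and from -1.71 to 1.46 in WT cells. Sdha, a subunit of complex II, rose in WT cells by 0.29 (adjusted p = 0.000571), and Uqcrc1, a core subunit of complex III, by 0.48 (adjusted p = 0.000127). Of 18 genes for mitochondrial DNA maintenance, transcription and RNA processing, 7 were higher and 1 lower in KO cells, and 6 higher and 1 lower in WT cells (44.4% and 38.9% called). Ssbp1, the single-strand DNA binding protein of mitochondria, rose by 0.35 in KO cells (adjusted p = 0.00487) and 0.42 in WT cells (adjusted p = 0.00172). The largest changes of this list, called or not, were downward, at -2.34 in KO cells and -1.98 in WT cells. Of 9 regulators tested, 4 were higher and 1 lower in KO cells, and 1 was higher and 0 lower in WT cells (55.6% and 11.1% called). Ppargc1b, a coactivator of mitochondrial biogenesis, had the smallest p in both, with 1.19 in KO cells (adjusted p = 2.41e-06) and 1.77 in WT cells (adjusted p = 1.93e-08). The proteins encoded by mitochondrial DNA were not analysed here. Of 85 cytosolic ribosomal proteins, 0 were called in KO cells by edgeR's quasi-likelihood test (2 higher and 2 lower at an unadjusted p under 0.05) and 1 was higher in WT cells. Cell cycle genes went the other way with IL4, with 20 of 25 lower in KO cells and 22 of 25 in WT cells, and the part of growth in the members' values was not tested.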

How the data were processed

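The authors deposited raw counts of reads per gene, which were analysed in 27 libraries. Per the labels, the libraries were made from poly(A) RNA with a directional NEBNext kit and sequenced as paired 50-base reads. Per the submitters' processing notes, fastp 0.23.2, STAR 2.7.0, featureCounts (no version) and edgeR 3.38.4 were used with the build mm10. The sources used here do not give the strand setting of counting, so reads of overlapping genes on opposite strands are uncertain. Gene models were from GENCODE vM21 (29815 of 29872 identifiers found).

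Genes with low counts were removed (filterByExpr, minimum count 10), which left 14589, among them all 77 members. All 8 groups entered 1 TMM-scaled model in edgeR 4.0.16 (R 4.3.3), tested by the quasi-likelihood F test with Benjamini-Hochberg adjustment over all genes with calls made at an adjusted p under 0.05. The biological coefficient of variation was 0.122 in common. The procedure was also run on simulated counts, with the same dispersion for every gene and no library that stood apart. That run therefore says nothing of such libraries. CPM uses scaled library sizes, and RPKM divides CPM by the length of the principal transcript in kilobases. The interaction is the KO change minus the WT change.

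The libraries carry numbers whose meaning the labels do not give. Same-numbered libraries deviated together from their group means at correlations of 0.115 to 0.28 for IL4 and vehicle in KO, 0.112 to 0.274 for corticosterone and vehicle in KO, 0.279 to 0.713 for IL4 and vehicle in WT, 0.279 to 0.674 for corticosterone and vehicle in WT, and 0.244 to 0.64 for dexamethasone and vehicle in WT. Every pair was over 0.1, the limit set for pairing, so blocked counts stand beside those results. Alternatives were RLE scaling, no filter, DESeq2 1.42.0, fits of only the groups compared, the block and leaving out each library. The members, gene lists and rules were chosen with earlier results of these data known. Members named were the 6 largest changes each way among those called in a comparison (5 each way for interactions), the 5 highest and 5 lowest levels, those nearest the threshold, the Mrps18 paralogs and members with second roles. Mrpl10, Mrpl4, Mrpl16 and Mrps27 in WT IL4, the 4 interaction members without a call, Slc5a3 and the neighbouring genes were added after their values were seen. So were Mrps22 and the members called with a glucocorticoid by the block alone.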

Additional observations from a re-analysis of the deposited data

Results flagged for a closer look

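In groups of 4 libraries, 84 sets of values were examined for a library far from the other 3. The sets were those of 27 named members and of the summed member level. Of the sets, 5 had such a gap by Dixon's critical value (0.829). Chance gives about 1 in 20. In KO vehicle, replicate 2 was high for Mrps36 (15.2 CPM, with the others at 12.8 to 13.1 CPM), Mrpl52 (51.6 CPM, with the others at 38.3 to 40.1 CPM) and Mrps21 (55.2 CPM, with the others at 46.2 to 47.0 CPM). In KO dexamethasone, Mrpl12 was high in replicate 2 (87.3 CPM, with the others at 79.2 to 80.0 CPM) and Mrps36 was low in replicate 1 (10.7 CPM, with the others at 12.9 to 13 CPM). Groups of 3 libraries were not examined, so the KO IL4 library numbered 4 could not be found this way.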

How the results depend on the processing

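Of 32 calls of a member in a comparison, 6 held under every alternative run: Mrps36 in KO IL4, and Mrpl15, Mrps15, Mrps25, Mrpl27 and Mrpl36 in WT IL4. No value of a member reversed its direction where it was called, and the median of all genes moved by under 0.05 with any scaling. The cause of the changes below was not tested.

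The number of members called changed by over 1.5 times as follows. With RLE scaling, KO against WT with corticosterone had 0. With no filter, KO against WT had 0 with corticosterone, 1 with dexamethasone and 1 with vehicle. With DESeq2, KO corticosterone had 2. When only the groups compared were fitted, KO IL4 had 1, WT corticosterone 0 and WT dexamethasone 0, and KO against WT had 0 with IL4, 2 with corticosterone, 0 with dexamethasone and 0 with vehicle. Without the 4 libraries high in Arg1, an alternative chosen after the data were seen, KO IL4 had 17 (25.9% of all genes), KO corticosterone 0, KO dexamethasone 0, WT IL4 17 (31.1% of all genes), and KO against WT had 1 with dexamethasone and 0 with vehicle.

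With 1 library left out in turn, the counts were 3 to 13 in KO IL4 (3 without its replicate 4), 0 to 2 in KO corticosterone, 1 to 2 in KO dexamethasone, 6 to 12 in WT IL4 (6 without WT vehicle replicate 2), 0 to 1 in WT corticosterone and 1 to 3 in WT dexamethasone. For KO against WT they were 0 to 3 with IL4, 0 to 1 with corticosterone, 0 to 2 with dexamethasone and 1 to 6 with vehicle, and for the interaction with IL4 0 to 1.

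With the replicate block, 16 members were called in KO IL4, 2 in KO corticosterone, 8 in KO dexamethasone (27.8% of all genes), 22 in WT IL4, 2 in WT corticosterone, 6 in WT dexamethasone and 1 for the interaction with IL4. KO dexamethasone and vehicle did not pass the pairing rule (correlations of 0.00519 to 0.363). KO and WT libraries share only a number (-0.236 to 0.0342), and that block gave 2 with IL4, 2 with corticosterone, 3 with dexamethasone and 4 with vehicle. The block changed no other count of members by over 1.5 times. With 3 or 4 libraries a group, small changes limit what can be called.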
